A study of Mus musculus with 3 samples.

Results

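Host fibroblasts are the mouse cells that make connective tissue where a human skin graft was placed under the skin of a mouse. They were chosen by their own RNA counts in the library of the graft (hSTSG): at least 1 UMI (a count of 1 RNA molecule) of Pdgfra, at least 20 UMIs of Col1a1 and Col1a2 together, and under 0.2% of UMIs from C1qa, C1qb and C1qc. Of the 2144 kept cells of that library, 125 met the rule (5.83%, 95% interval 4.88 to 6.91%), out of 18226 kept cells in the series. Human split-thickness skin had been implanted into wild-type C57BL/6J mice and was taken out after 14 days. The tissue of 5 mice was minced, digested with collagenase IV and sequenced as 1 library, and no label says which cell came from which mouse. The series also holds bone marrow cells of C57BL/6 mice grown with GM-CSF, either untreated (Co-Mac) or given vitamin D3 (1,25-dihydroxycholecalciferol) on day 7 for 24 h (VD-Mac). The labels give no age and no library of unimplanted skin. Counts cover mouse genes alone, so human genes of the graft are not listed in them. Whether human reads were counted under mouse genes was not tested. The counts carry no position, so they do not show whether a cell lay beside the graft or within it.

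Fibroblasts secrete and remodel the collagen-rich matrix of connective tissue. Pdgfra is the receptor for platelet-derived growth factor by which such cells are commonly recognized. After injury or implantation of foreign material they also release chemokines, cytokines and growth factors, and some become contractile myofibroblasts that close wounds or form a capsule.

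The rule itself fixes some values, which are given as description. The members held 1, 7 and 40 UMIs of Pdgfra (lowest, median and highest), and 35, 635 and 3266 UMIs of Col1a1 and Col1a2 together. C1q genes made up 0%, 0% and 0.181% of their UMIs, with at least 1 such UMI in 37 members. Most members thus lay far above the collagen threshold and near 0 for C1q. Just inside the rule stood 9 members with exactly 1 Pdgfra UMI, whose collagen I counts were 36 to 580.0, and 2 members with 35 and 36 collagen I UMIs. Just outside, 14 kept cells failed on Pdgfra alone, with 32 to 695 collagen I UMIs. Another 6 failed on collagen alone, with 0 to 10 UMIs, and 1 failed on C1q alone, at 0.374%. Few cells therefore lay near the collagen and C1q thresholds, and more lay near the Pdgfra threshold.

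The fibroblasts had the highest median depth of the cell sets. They held 2737, 26726 and 73155 gene UMIs and 1099, 4741 and 6945 genes per cell, and a median of 3.17% mitochondrial UMIs. Macrophages, set by C1q genes (580 cells), had a median of 11533 UMIs, and endothelial cells, set by Cdh5, Pecam1 and Kdr (22 cells), 12373.5. T cells, set by Cd3 genes (257 cells), had 5814, and neutrophils, set by S100a8 and S100a9 (458 cells), 2362.5. The endothelial set was mixed: 3 of its cells held at least 20 collagen I UMIs and 33.8% of its UMIs, and pericyte and smooth muscle markers summed to 1791 CPM in it. Levels given for endothelial cells include those cells. The fibroblasts gave 15.2% of the kept UMIs from 5.83% of the kept cells. The rule sets minimum counts of Pdgfra and collagen I, which deeper cells reach more easily, so it partly sets this depth. The 14 kept cells that failed on Pdgfra alone had a median of 15737.5 UMIs. Levels below are UMIs per 1000000 gene UMIs (CPM) over the summed cells of a set, so that deeper cells weigh more. Intervals in brackets are 95% intervals for counting error only, since there is no replicate library, and no test was run between sets.

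All 12 fibroblast markers were at least 2-fold higher than in the other kept cells, beside 19.3% of tested genes that were higher and 25.8% that were lower, and from which nothing is read because the rule used the same contrast. Clec3b, which encodes tetranectin, stood at 1138 CPM (1103 to 1174), 210.1 times (173 to 258) the level of the other kept cells. Dcn, for the collagen-binding proteoglycan decorin, stood at 6743 CPM (6656 to 6830.3), 151 times (141 to 162) that level. Srpx, a secreted sushi-repeat protein, was less abundant, at 155 CPM (142 to 168), yet 186 times (113 to 327) the level elsewhere. Single fibroblasts held 18.6, 67.9 and 231 Dcn UMIs per 10000 (lowest, median, highest), 0, 10.5 and 51.5 of Clec3b and 0, 1.18 and 8.69 of Srpx. Dcn was thus seen in each member. Clec3b and Srpx were seen in fewer members. Srpx was seen in 19.2% of members thinned to 2000 UMIs and in 80.8% unthinned, and Clec3b in 68.8% and 82.4%. Thinning thus moved the share of Srpx more than that of Clec3b.

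Markers of other cell types were counted in the same cells. Of 12 macrophage markers, 3 are C1q genes, on which fibroblasts and macrophages were selected. The other 9 each had a UMI, were lower than in the other kept cells and summed to 122 CPM, against 15295 CPM in macrophages, with Lyz2 the most abundant at 38.3 CPM. The 8 neutrophil markers summed to 235 CPM, led by Il1r2 at 70.0 CPM, and the 8 T cell markers to 3.49 CPM, with Cd3e and Trbc1 at 0. Of 8 endothelial markers, Cdh5, Cldn5, Tie1 and Emcn were at 0, and the sum was 41.3 CPM, mostly Pecam1 at 34.9 CPM. The 10 pericyte and smooth muscle markers summed to 25.3 CPM, with Higd1b at 0. Adipocyte markers summed to 0.581 CPM, with Plin1, Car3, Lep, Retn and Cfd at 0. Keratinocyte markers summed to 21.5 CPM, led by Krt10, with Krt5, Krt14 and Krt1 at 0, and mesothelial markers to 5.52 CPM. Skeletal muscle markers summed to 3.78 CPM and B lineage markers to 13.4 CPM. Schwann cell markers summed to 187 CPM, of which Pmp22, a membrane protein that fibroblasts also make, gave 173 CPM. A Ptprc (CD45) UMI was seen in 16 members, with 1 to 5 UMIs each. No doublet caller was run and such cells were kept. The part of these markers in the results was not tested.

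The cultures held almost no such cell. The rule was met by 1 of 7257 Co-Mac cells, which had 58539 UMIs, 1 of them Pdgfra and 209 collagen I, and by 0 of 8825 VD-Mac cells. Before filtering, 7 barcodes of the graft library were also in Co-Mac, 7 in VD-Mac, and 19 were shared by the cultures. The barcode of 1 fibroblast was among those in Co-Mac. There it marked a cell with 12475 UMIs and 0 of Pdgfra, Col1a1 or Col1a2, whereas in the graft library it held 25 Pdgfra and 866 collagen I UMIs. Without this member, 1730.0 genes were higher and 2314 lower than in the other kept cells, and with it 1735 and 2313. Fibroblasts could therefore not be compared between the graft and the cultures.

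At least 1 UMI of 15786 genes was counted in the fibroblasts, free RNA included, and 6 genes gave the first 10% of their UMIs. Among 8980 genes with at least 10 CPM in fibroblasts or in the other kept cells, 1735 were at least 2-fold higher in fibroblasts, 2313 at least 2-fold lower and 4932 neither. At 4-fold these counts were 1114 and 1144, with a minimum of 50 CPM 734 and 1161, and with no minimum 4881 and 6840.0. The median log2 ratio over these tested genes was -0.26. Fibroblasts had the highest level among the 5 cell sets for 1678 of them (18.7%). Over all tested genes 19.3% were higher and 25.8% lower, and these shares are the background for each list count below, also where they are not repeated. A gene could pass the 10 CPM minimum in fibroblasts alone, so list counts of higher genes are partly set by it. Col3a1, of fibrillar collagen III, had the most UMIs, at 24622 CPM (24457 to 24788). Single cells held 14.9, 231 and 642 UMIs per 10000. Each member thus carried it, over a wide range. Other leading genes were Saa3, an acute-phase serum amyloid, at 17132 CPM, Sparc, a collagen-binding matrix protein, at 11054 CPM, and Mt1, a metal-binding metallothionein, at 7435 CPM. C3, the central complement protein, stood at 6158 CPM. Malat1 at 15920.3 CPM, Tpt1 at 5783 CPM and Fth1 of the iron store ferritin at 5489 CPM are abundant in most cells and were not higher here. Gm42418 stood at 21553 CPM; it overlaps a ribosomal RNA repeat, and its reads may not come from a messenger RNA.

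Ranked by ratio with 1 CPM added to each level, Adamts5, a protease that cuts the proteoglycan aggrecan, led, with 376 times (280.4 to 517) the level of the other kept cells before that addition. Next came Mmp3 (stromelysin), at 265 times (235 to 301), and Ptx3, a pentraxin of innate immunity, at 201 times (176 to 231). Sfrp2, a secreted modulator of Wnt signals, was at 235 times (179 to 314), and Cxcl5, a neutrophil-attracting chemokine, at 210.3 times (162 to 278). Prg4 (lubricin) was at 206 times (159 to 272), Has1, which makes hyaluronan, at 200.3 times (154 to 265), and Efemp1 (fibulin 3) at 194 times (149.7 to 256). These leading genes encode secreted proteins, except Has1, an enzyme of the cell membrane. The reference set moved some ratios: against macrophages alone, the log2 ratio was 9.01 for Dcn in place of 7.21, 9.48 for Clec3b in place of 7.47, and 8.15 for Sparc in place of 5.53. Averaged over cells, that of Mmp3 was 6.93 in place of 7.95. The sources do not settle the build of the alignment; on GRCm38, Saa3 lies on chromosome 7, 46711998 to 46715700, Mmp3 on chromosome 9, 7445822 to 7455975, Adamts5 on chromosome 16, 85856173 to 85901828, Clec3b on chromosome 9, 123150946 to 123157432 and Dcn on chromosome 10, 97479609 to 97518143.

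Free RNA was gauged by the share of cells with a UMI in cells that are not known to make stromal genes. With each cell thinned to 2000 UMIs, Col3a1 was seen in 100.0% of 125 fibroblasts, 8.98% of 256 T cells and 11.01% of 327 neutrophils. In unthinned cells, with medians of 26726, 5814 and 2362.5 UMIs, Col3a1 was seen in 100.0%, 24.1% and 15.1%. Thinning left out 131 neutrophils, 49 macrophages and 1 T cell with fewer UMIs. Col3a1, the stromal gene with the most UMIs, was thus found in a minority of these immune cells. For Dcn the thinned shares were 100.0%, 5.08% and 2.75%, and for Clec3b 68.8%, 0% and 0.306%. Saa3 was seen in 67.2% of thinned fibroblasts, 5.86% of T cells and 19.3% of neutrophils. The source of these UMIs was not tested.

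**Figure D1:**
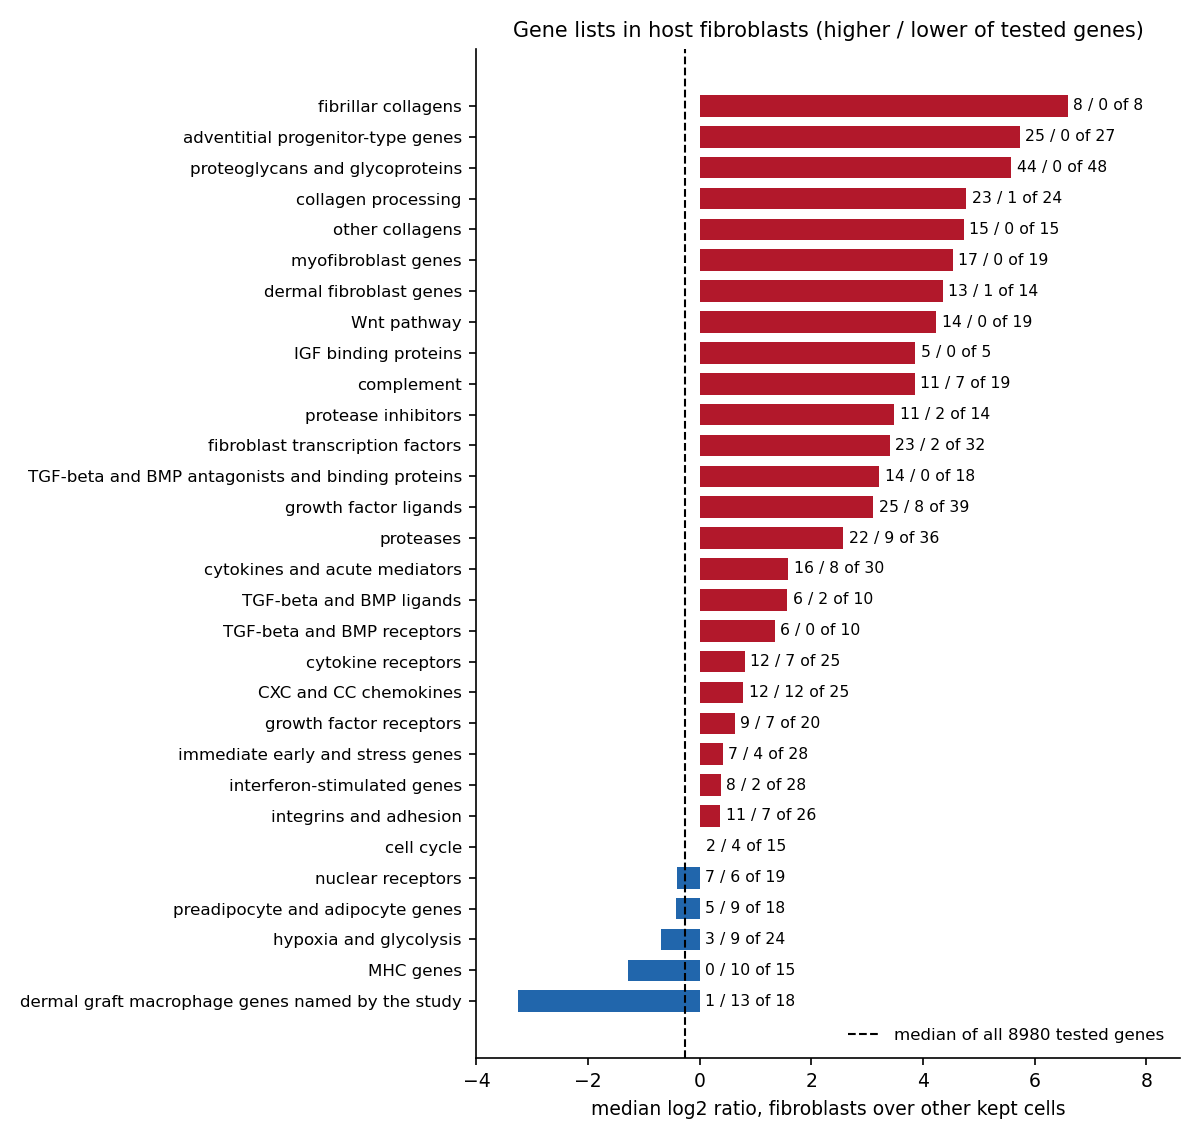
Median log2 ratio of each gene list, fibroblasts over the other kept cells of the graft, with the numbers of genes at least 2-fold higher and lower of those tested beside each bar; the dashed line is the median of all 8980 tested genes (-0.26). The highest medians are those of fibrillar collagens at 6.59, which include genes of the rule, adventitial genes at 5.74 and proteoglycans and glycoproteins at 5.58, and MHC genes at -1.28 lie near the bottom.

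Collagen genes gave 6.38% of the gene UMIs of fibroblasts (6.35 to 6.40%). Single cells ranged over 1.42%, 5.83% and 18.2%. Without Col1a1 and Col1a2, which the rule used, the share was 3.42% (3.40 to 3.44%). Endothelial cells stood at 0.921% without these genes, and macrophages at 0.0105%. All 8 tested fibrillar collagen genes were higher in fibroblasts, with a median log2 ratio of 6.59, or 8.39 against macrophages alone. All 8 reached 10 CPM in fibroblasts, so nothing is read from the count. Without Col1a1 and Col1a2, whose excess the rule fixed, 6 of 6 were higher and the median was 5.96. Besides the genes of the rule these were led by Col3a1 and the collagen V chains that regulate fibril width, Col5a1 at 1292 CPM (1255 to 1331) and Col5a2 at 1731 CPM (1687 to 1776). Col2a1, of cartilage collagen, was at 0, where up to 3 UMIs (0.872 CPM) could have been missed.

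Of 26 listed other collagens, 15 were tested, and each of these reached 10 CPM in fibroblasts. All 15 were higher, with a median log2 ratio of 4.73 (2.94 with 5 CPM added in place of 1). The minimum could be met in fibroblasts alone, so nothing is read from this count. The list summed to 5841 CPM in fibroblasts and 8143 CPM in the endothelial set, where the 3 cells with collagen I gave 46.2% of it. The 8 cells of that set with at least 10 pericyte and smooth muscle marker UMIs gave 75.1% of it. Col4a1, of the basement membranes that line vessels, stood at 705 CPM in fibroblasts and 4113 CPM in endothelial cells. The chains of beaded collagen VI had 957 CPM (Col6a1), 882 CPM (Col6a2) and 802 CPM (Col6a3). Col14a1, a fibril-associated collagen, stood at 818 CPM, 162 times (132 to 200.5) the level of the other kept cells. Col6a5 and Col12a1 were uneven: UMIs were seen in 50.4% and 67.2% of members. The 10% of cells with the most UMIs of Col12a1 held 68.2% of them. Col4a6, Col10a1, Col17a1, Col22a1, Col25a1 and Col26a1 were at 0.

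Of 24 tested genes that fold, cut and crosslink collagen, 23 were higher and 1 lower (median 4.78), beside 19.3% and 25.8% of all tested genes. All 24 reached 10 CPM in fibroblasts, so nothing is read from this count. Serpinh1, the collagen chaperone HSP47, stood at 2744 CPM (2689 to 2799.7), 44.7 times (42.1 to 47.5) the level elsewhere. Single members held 7.32, 25.2 and 59.8 of its UMIs per 10000, so each of them carried it. The crosslinking enzymes Lox and Loxl1 were at 1071 CPM and 691 CPM. Lox was at 0 in the 22 endothelial cells. Pcolce at 688 CPM and Bmp1 at 697 CPM act together to trim the procollagen ends. P4ha1, a subunit of the prolyl hydroxylase, was closer to the other cells, at 2.35 times (2.15 to 2.56).

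Proteoglycans and glycoproteins showed 44 of 48 tested genes higher and 0 lower (median 5.58). All 48 reached 10 CPM in fibroblasts, so nothing is read from this count. Bgn (biglycan), a relative of decorin, stood at 2877 CPM, Dpt (dermatopontin) at 1777 CPM and Fbn1, of the microfibrils that hold elastic fibers, at 1188 CPM. Mfap5, another microfibril protein, was at 155 times (129.9 to 188) the level elsewhere. Fn1 (fibronectin) was not among the higher genes: fibroblasts had 2928 CPM and macrophages 2369 CPM. Postn (periostin), which binds collagen in healing tissue, stood at 1772 CPM, with 0, 14.2 and 91.6 UMIs per 10000 in single cells. Tnc (tenascin C) was seen in 38.4% of members, and the top 10% of members held 79.3% of its UMIs. Periostin was thus spread over most members and tenascin C was counted in a minority.

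Of 36 tested proteases, 22 were higher than in the other kept cells and 9 lower (median 2.57), where 19.3% of all tested genes were higher and 25.8% lower. Mmp3 stood at 3732 CPM (3668 to 3797) and Mmp2 (gelatinase A) at 1272 CPM (1234 to 1310.1). Single cells held 0, 13.6 and 550.1 Mmp3 UMIs per 10000 and 1.68, 11.6 and 55.7 of Mmp2. Mmp2 was thus in each member, whereas Mmp3 varied from 0 to high levels. Adamts1, a relative of Adamts5, stood at 1226 CPM and Cpxm1 at 1069.9 CPM. The elastase Mmp12 stood at 15.7 CPM against 1863 CPM in macrophages, and the collagenase Mmp13 at 104 CPM against 858 CPM. The lysosomal proteases Ctsb and Ctsl were likewise lower, at 984 CPM and 1531 CPM against 6127 CPM and 6998 CPM in macrophages.

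Of 14 tested protease inhibitors, 11 were higher and 2 lower (median 3.49). Serping1, which inhibits the first complement proteases, led at 2451 CPM (2399 to 2504), 105 times (95.1 to 115) the level elsewhere. Timp1, an inhibitor of matrix metalloproteases, stood at 1431 CPM, and single cells held 0, 4.09 and 86.0 of its UMIs per 10000. Timp2 was more even, with 0, 9.19 and 51.2 per 10000, but macrophages had as much (949.8 CPM against 946 CPM). Serpinf1 (pigment epithelium-derived factor), which restrains vessel growth, was at 959 CPM. Serpina3n, a secreted serine protease inhibitor, stood at 1374 CPM. It belongs to a cluster of near copies, so its reads may be shared with them. Timp4 was at 0.

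Genes of adventitial fibroblasts, the cells around vessels and in fascia that are described as progenitors, were 25 of 27 higher and 0 lower (median 5.74). All 27 reached 10 CPM in fibroblasts, so nothing is read from this count. Pi16, a marker of these cells, stood at 1048 CPM (1014 to 1083), and single cells held 0, 7.77 and 86.6 UMIs per 10000. Ly6a (Sca-1) stood at 1233 CPM, but T cells also had 503 CPM, and its paralogs are close in sequence. Sema3c, a secreted guidance protein, was at 227 CPM and Ackr3, a scavenging chemokine receptor, at 427 CPM. The list of dermal fibroblast genes had 13 of 14 tested genes higher and 1 lower (median 4.36), and all 14 reached 10 CPM in fibroblasts. Of the 30 listed, Lef1, Wif1, Sox2, Corin and Coch, several of them known from the dermal papilla or the upper dermis, were at 0. Gsn, an actin-severing protein, gave 4563 CPM and Gpx3, a secreted glutathione peroxidase, 1927 CPM. Crabp1, a retinoic acid binding protein of dermal fibroblasts, was seen in 14.4% of members. Each list had a UMI in all 125 members, and the sums were 14100 CPM for adventitial and 7621 CPM for dermal genes. Coch had no UMI in the other kept cells either, and nothing is read from the dermal genes at 0.

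Myofibroblast genes were 17 of 19 higher and 0 lower (median 4.53, or 3.39 with 5 CPM added). All 19 reached 10 CPM in fibroblasts, so nothing is read from this count. Tagln (transgelin) stood at 139.7 CPM and was seen in 17.6% of members, and the top 10% of them held 97.9% of its UMIs. Cnn1 (calponin) was at 4.36 CPM and Myh11, of smooth muscle myosin, at 1.45 CPM. Cthrc1, a collagen-triple-helix protein of scar-forming fibroblasts, was at 290.2 CPM and seen in 67.2% of members. Tpm1 (tropomyosin 1) stood at 196 CPM and was seen in 81.6%. Acta2 (smooth muscle actin), named after its values were seen, stood at 126 CPM and was seen in 12.8%. Tagln and Acta2 were thus counted in few members, and Tpm1, Cthrc1 and Postn in most. Of 18 tested preadipocyte and adipocyte genes, 5 were higher and 9 lower (median -0.43, or 0.000609 with macrophages as the reference). Lpl (lipoprotein lipase) stood at 876 CPM and Apod (apolipoprotein D) at 638 CPM, 144 times (116 to 181) the level elsewhere. Apoe was lower at 442 CPM, against 6954 CPM in macrophages.

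**Figure D2:**
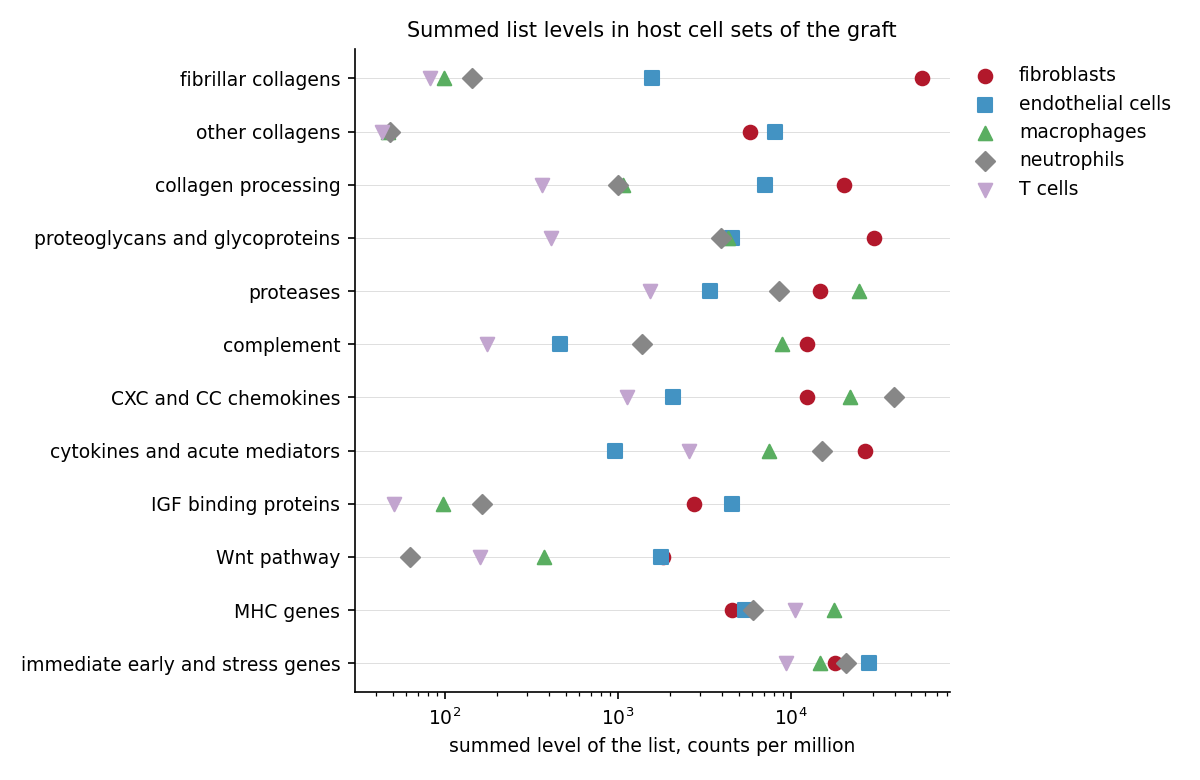
Summed level of 12 gene lists in each host cell set of the graft, in CPM on a log axis, with 1 symbol per cell set. Fibrillar collagens reach 57932 CPM in fibroblasts, or 28306 CPM without Col1a1 and Col1a2, on which the members were selected; chemokines reach 39554 CPM in neutrophils, 21948 CPM in macrophages and 12448 CPM in fibroblasts.

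Chemokines are the secreted proteins that draw white cells. Of 25 tested genes, 12 were higher and 12 lower (median 0.78), and their sum was 12448 CPM in fibroblasts and 17499 CPM in the other kept cells. Cxcl1, which attracts neutrophils through Cxcr2, was the most abundant, at 3081 CPM (3023 to 3140.3) and 12.2 times (11.8 to 12.6) the level elsewhere. Its close relative Cxcl2 was lower in fibroblasts, at 1281 CPM against 21810.0 CPM in neutrophils. Cxcl12, which holds stem cells and lymphocytes in stroma, stood at 1429 CPM, and single cells held 0, 10.6 and 103 UMIs per 10000. Ccl11 (eotaxin), which draws eosinophils, stood at 571 CPM, 139 times (111 to 176) the level elsewhere. The B cell attractant Cxcl13 stood at 726 CPM, seen in 47.2% of members, and Cxcl5 at 635 CPM, seen in 34.4%. Cxcl12 and Ccl11 were thus general among the members, and Cxcl13 and Cxcl5 were found in a minority. The monocyte attractants Ccl2 and Ccl7 were shared with macrophages: 1447 CPM and 983 CPM in fibroblasts, 815 CPM and 1167 CPM in macrophages. The interferon-induced Cxcl9 and Cxcl10 stood at 294 CPM and 1058 CPM. Ccl17, Ccl21a and Ccl22 were at 0.

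Among cytokines and acute mediators, 16 of 30 tested genes were higher and 8 lower (median 1.59, or 2.74 against macrophages). Saa3 stood at 17132 CPM (16994 to 17271), 36.9 times (36.1 to 37.7) the level elsewhere, and gave most of the list's sum of 26934 CPM. Single cells held 0, 53.1 and 988 Saa3 UMIs per 10000, and 80.8% of members had any. Saa3 is thus abundant in the sum but far from uniform among cells, and its reads may be shared with Saa1 and Saa2. Ptx3 stood at 2295 CPM and Tnfaip6 (TSG-6), which links hyaluronan chains in inflamed tissue, at 1518 CPM. Il6 was at 677 CPM, 7.47 times (7.01 to 7.95) the level elsewhere, and the alarmin Il33 at 345 CPM, 90.8 times (71.6 to 117) that level. Lcn2 (lipocalin 2), which binds bacterial iron carriers, stood at 767 CPM against 2830.4 CPM in neutrophils. The neutrophil growth factor Csf3 and Lif were low, at 69.7 CPM and 25.0 CPM, in 19.2% and 11.2% of members.

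Of 25 tested cytokine receptors, 12 were higher and 7 lower (median 0.81), beside 19.3% and 25.8% of all tested genes. Il11ra1, the receptor for the fibrogenic interleukin 11, led at 590.3 CPM. The shared receptor chain Il6st (gp130) stood at 319.6 CPM and Osmr, for oncostatin M, at 177 CPM. Il1r1, by which interleukin 1 acts, was at 304 CPM, 11.6 times (10.4 to 12.9) the level elsewhere. Il13ra2, a decoy for interleukin 13, was at 62.2 CPM and 119 times (63.7 to 253) that level. Receptors for interleukin 1 and for the interleukin 6 family were therefore counted in most members (88.8% for Il1r1 and 84% for Osmr).

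Complement genes were 11 of 19 higher and 7 lower (median 3.85, or 2.61 with 5 CPM added). Without the C1q genes of the rule, 11 of 16 were higher and 4 lower (median 4.11). C3 stood at 6158 CPM (6076 to 6242), with 0, 52.6 and 261 UMIs per 10000 in single members, and at 372 CPM in macrophages. C1s1 and C1ra, the proteases of the first component of the classical pathway, were at 856 CPM and 587 CPM, and C4b at 1316 CPM. C4b has a near copy, C4a, which the file does not list by that name. C1qa, a chain of the recognition protein of that pathway, is not compared, since fibroblasts and macrophages were both selected on C1q. Cfd, the adipocyte protease of the alternative pathway, was at 0.

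Of 15 tested MHC genes, which present peptides to T cells, 0 were higher, 10 lower and 5 neither (median -1.28). Over all tested genes 25.8% were lower. B2m, the light chain of class I, was neither, at 1811 CPM (1767 to 1857), with the other kept cells at 1.76 times (1.71 to 1.81) that. The class I heavy chain H2-K1 stood at 948 CPM (916 to 981), with the other kept cells at 2.03 times (1.96 to 2.10) that. H2-Ab1, of class II, stood at 111 CPM against 1795 CPM in macrophages, and Cd74, which escorts class II, at 175 CPM. Of these, 1 member with 5 Ptprc UMIs held 211 of the 382 H2-Ab1 UMIs and 338 of the 603 Cd74 UMIs. Reads of the H2 genes may be shared among them. Of 28 tested interferon-stimulated genes, 8 were higher, 2 lower and 18 neither (median 0.38), where 19.3% of all tested genes were higher. Ifitm3 stood at 1876 CPM, 3.06 times (2.97 to 3.16) the level elsewhere, and the GTPase Iigp1 at 479.6 CPM, 16.0 times (14.5 to 17.6) that level. Endothelial cells had as much Iigp1, at 477 CPM.

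In the TGF-beta and BMP pathways, 6 of 10 tested ligands were higher and 2 lower (median 1.57). Tgfb1, the main profibrotic ligand, was lower at 40.4 CPM (33.9 to 47.7), against 291 CPM in macrophages and 440.0 CPM in T cells. Tgfb2 was higher, at 70.6 CPM and 30.1 times (21.8 to 42.4) the level elsewhere. Gdf10 had 29.1 CPM and not a UMI in the other kept cells. Inhba, which encodes a chain of activin A, stood at 128 CPM against 283 CPM in macrophages. Bmp5, Gdf5 and Mstn were at 0. Of 10 tested receptors, 6 were higher and 0 lower (median 1.35), with Tgfbr2 at 474 CPM and the co-receptor Tgfbr3 at 233 CPM. Antagonists and binding proteins were 14 of 18 higher and 0 lower (median 3.22). Fst (follistatin), which binds activins, stood at 425 CPM, 221 times (159 to 315) the level elsewhere, and Fstl1 at 2815 CPM. Receptors and antagonists were thus higher or neither, while Tgfb1 was lower.

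Of 39 listed Wnt pathway genes, 19 were tested, and 18 reached 10 CPM in fibroblasts. Of the 19, 14 were higher and 0 lower (median 4.24, or 2.36 with 5 CPM added). The minimum could be met in fibroblasts alone, so nothing is read from this count. The secreted frizzled-related proteins led: Sfrp2 at 648 CPM (621 to 675), Sfrp4 at 207 CPM and Sfrp1 at 140.3 CPM. Single cells held 0, 4.16 and 46.9 Sfrp2 UMIs per 10000. Dkk3, of the dickkopf family, was at 58.4 CPM. Wnt2b, Wnt6, Wnt10a, Sfrp5, Wif1 and Lef1 were at 0.

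Growth factor ligands were 25 of 39 higher and 8 lower (median 3.11). The matrix-bound proteins Cyr61 and Ctgf, which respond to stretch, stood at 804 CPM and 232 CPM. Vegfd, which acts on vessels and lymphatics, was at 266 CPM (249 to 284), 176 times (122 to 265) the level elsewhere. Vegfa, the main vessel growth factor, was not higher: fibroblasts had 173 CPM and macrophages 339.7 CPM. Adm (adrenomedullin), which widens vessels, stood at 394 CPM, 25.3 times (22.3 to 28.8) the level elsewhere. Macrophages had 1.68 CPM of Vegfd and 17.5 CPM of Adm. The axon guidance ligand Slit3 was at 177 CPM, and Igf2 and Fgf9 were at 0. Among receptors, 9 of 20 were higher and 7 lower (median 0.63), or 8 of 19 and 7 without Pdgfra, which the rule used (median 0.56). Over all tested genes 19.3% were higher and 25.8% lower. Fgfr1 stood at 366 CPM, Egfr at 237 CPM, the collagen receptor Ddr2 at 210.0 CPM and Axl at 261 CPM. Pdgfrb stood at 118 CPM and, in the endothelial set, which also held pericyte markers, at 153 CPM. All 5 tested IGF binding proteins were higher (median 3.86, or 5.78 against macrophages), with Igfbp7 at 1115 CPM, Igfbp4 at 716 CPM and Igfbp6 at 608 CPM. Endothelial cells had more Igfbp7, at 3923 CPM.

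Integrins and adhesion genes were 11 of 26 higher and 7 lower (median 0.37), beside 19.3% and 25.8% of all tested genes. Pdpn (podoplanin) stood at 504 CPM and Thy1 (CD90) at 378 CPM, which T cells share at 533 CPM. Sdc2, a heparan sulfate proteoglycan, was at 136 CPM, 154 times (94.9 to 266) the level elsewhere, while its relative Sdc4 was lower, at 293 CPM. Mrc2, an uptake receptor for collagen, was at 249 CPM, and Itga3 was at 0.

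Transcription factors known from fibroblasts were 23 of 32 higher and 2 lower (median 3.40). Aebp1 stood at 1594 CPM (1552 to 1636), Ebf1 at 501 CPM and Prrx1, a factor of limb and body-wall mesenchyme, at 364 CPM (344 to 385). Prrx1 was seen in each member, with 0.364, 3.37 and 10.3 UMIs per 10000. Twist2, a dermal factor, was at 57.2 CPM, and Osr1 and Osr2 at 81.1 CPM and 74.4 CPM. Tcf21, Foxd1 and Six2 were at 0. Of the Hox genes, which mark position along the body, 5 reached 10 CPM: Hoxc8 at 37.2 CPM, Hoxc6 at 21.8 CPM, Hoxc9 at 17.4 CPM, Hoxd8 at 16.6 CPM and Hoxc10 at 11.04 CPM. Of these, 4 lie in the HoxC cluster and belong to groups that are known from the trunk.

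Nuclear receptors and their enzymes were 7 of 19 higher and 6 lower (median -0.41), beside 19.3% and 25.8% of all tested genes. The list median was 0.45 when cells were averaged, 0.08 against macrophages and 0.27 with collagen UMIs left out of the totals. Vdr, the vitamin D receptor, stood at 8.13 CPM (5.41 to 11.8) in fibroblasts, with the other kept cells at 7.37 times (5.07 to 11.1) that. In the cultures it stood at 51.1 CPM in Co-Mac and 135 CPM in VD-Mac. Cyp24a1, the vitamin D-degrading enzyme that active vitamin D induces, was at 0 in fibroblasts and at 315 CPM in VD-Mac. The other kept cells of the graft had no UMI of it either, so its absence is not particular to fibroblasts. In fibroblasts Cyp27b1, which makes the active form, was at 0, as was Rxrg. These vitamin D genes thus had few or 0 UMIs in the fibroblasts at this depth. Nr4a1, an orphan receptor of the immediate early response, stood at 261 CPM. Hsd11b1, which activates glucocorticoid, was at 130.4 CPM, and Aldh1a1 and Aldh1a3, which make retinoic acid, were at 42.4 CPM and 42.1 CPM.

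Of 24 tested hypoxia and glycolysis genes, 3 were higher, 9 lower and 12 neither (median -0.69). Over all tested genes 25.8% were lower, with a median of -0.26. Gapdh stood at 468 CPM, with the other kept cells at 2.32 times (2.21 to 2.44) that, whereas Hk2 (hexokinase 2) was higher at 353 CPM. Cell cycle genes were 2 of 15 higher and 4 lower (median 0.01, or -0.04 with stricter members), beside 19.3% and 25.8% of all tested genes. Top2a stood at 19.2 CPM, seen in 12.8% of members, and the cell cycle inhibitor Cdkn1a at 155 CPM against 1016 CPM in macrophages. The replication gene Pcna was seen in 55.2% of members and was lower than in the other kept cells, at 44.4 CPM. Tyms, which makes thymidylate, was higher, at 16.8 CPM, and was seen in 26.4%. At least 1 gene of the list had a UMI in 91.2% of members, so the list gives no count of dividing cells. Immediate early and stress genes, which tissue digestion can also raise, were 7 of 28 higher and 4 lower (median 0.41, or -0.09 when cells were averaged). Over all tested genes 19.3% were higher and 25.8% lower, and nothing is read from these counts. Egr1 stood at 2561 CPM and Fos at 1768 CPM, with endothelial cells at 3027 CPM and 2009.9 CPM. Of the 18 genes by which the study described macrophages of the graft, 1 was higher and 13 lower. Cd163 and Lyve1 were at 0, Mrc1 stood at 25.0 CPM against 3066 CPM, and Trem2 at 2.61 CPM against 432 CPM.

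The fibroblasts differed widely among themselves. After thinning to 5000 UMIs, which 117 of 125 members reached, 442 of 2588 genes with at least 50 CPM (17.1%) had a variance at least 2 times their mean. The median of this ratio, the dispersion, was 1.23. It was highest for Hbb-bs at 386, a red cell gene. Of 2813 UMIs of the 4 hemoglobin genes counted, 1 member held 2670.0, so this dispersion rests mainly on 1 cell. Saa3 followed at 161, then Gm26870 at 110.4 and Mgp at 104, of which the top 10% of members held 99.4% and 98.4% of the UMIs. Mmp3 had 64.9, Hp (haptoglobin), an acute-phase protein, 36.4, and Col1a1 32.6. Spp1 (osteopontin), a main product of the macrophages here, had 32.2, and the top 10% of members held 87.9% of it. UMIs of Saa3, Mmp3 and Hp were seen in 80.8%, 91.2% and 72% of members, and the top 10% of members held 50.7%, 60.04% and 66.4% of them.

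Clustering of the 117 members on their 300 most dispersed genes, with Ward's method, gave groups of 49, 38 and 30 cells. The number of groups was set to 3, and 2 groups held 68 and 49 cells. The groups were made from these same counts, so what follows describes them and tests nothing. Their median depths were 28422, 21617.5 and 35683 UMIs, and their median mitochondrial shares 4.08%, 2.58% and 2.76%. A Ptprc UMI was seen in 6, 5 and 4 of their cells. Fibroblast markers summed to 72133 CPM, 64951 CPM and 59104 CPM. These sums include Col1a1 and Col1a2, on which the members were selected. Macrophage markers summed to 184 CPM, 152 CPM and 75.7 CPM, and neutrophil markers to 349.9 CPM, 169 CPM and 126 CPM. Endothelial markers were lowest in group 1, at 13.9 CPM, 71.7 CPM and 55.4 CPM. Cd74 stood at 71.0 CPM, 589.7 CPM and 10.2 CPM, where 1 member gave 338 of the 485 UMIs of group 2. Gm42418 stood at 30825 CPM, 16134 CPM and 12769.5 CPM. With hemoglobin genes, Gm42418 and Gm26870 left out of the clustering, 49 of 49, 36 of 38 and 30 of 30 cells stayed together. Apart from that, the part of depth, mitochondrial share, Gm42418 and these markers in the grouping was not tested.

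**Figure D3:**
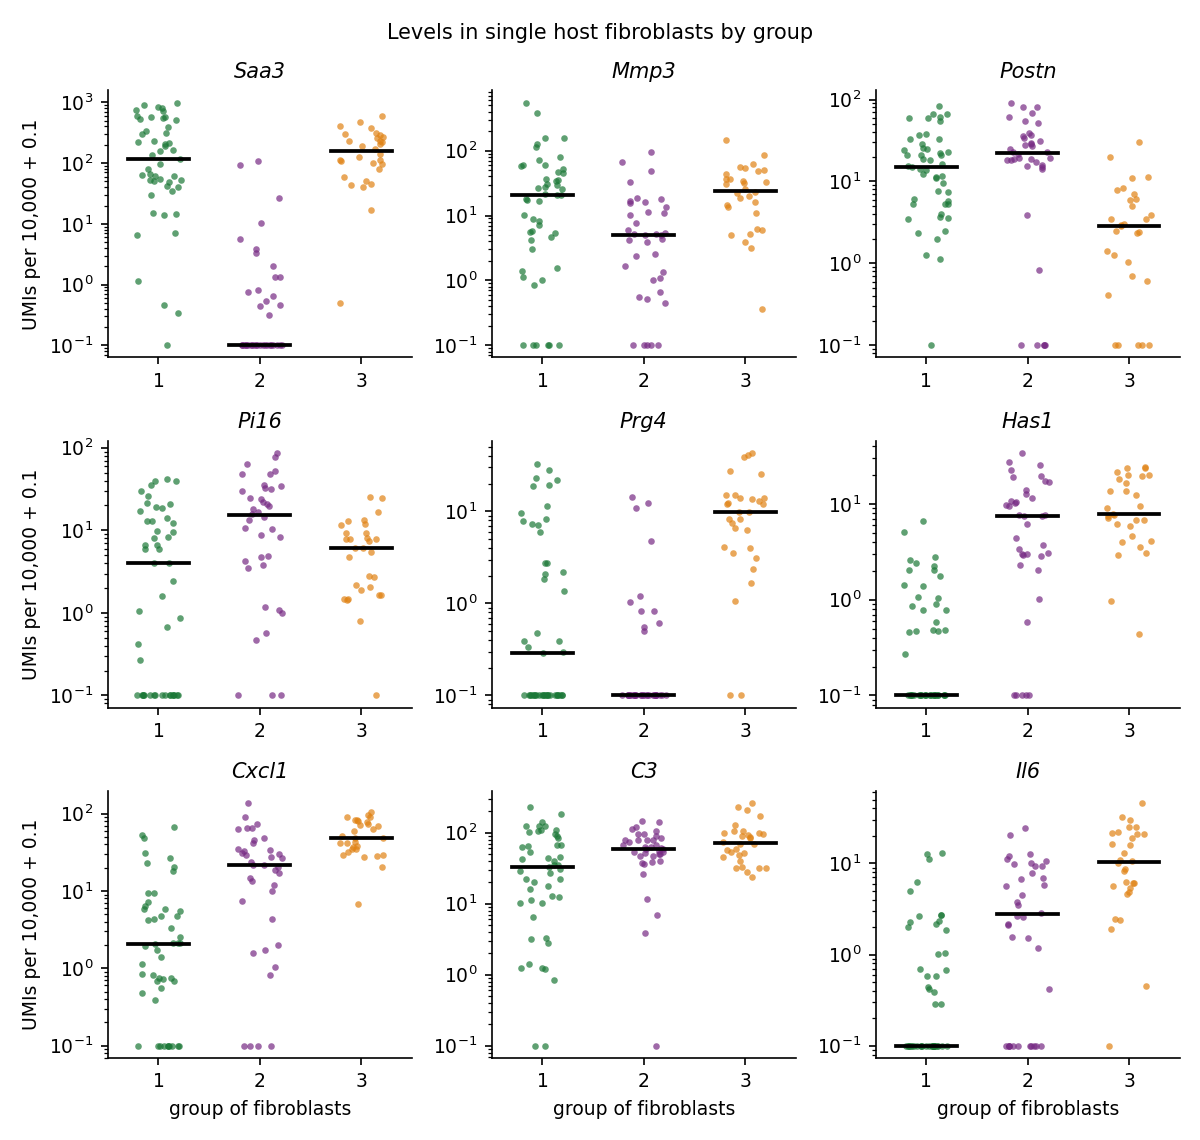
Levels of 9 genes in single fibroblasts of the groups of 49, 38 and 30 cells, in UMIs per 10000 gene UMIs with 0.1 added, on log axes; each point is a cell and each bar the group's median. Saa3 has medians of 118, 0 and 157, and Pi16 of 3.87, 15.0 and 6.02.

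Group 1 had the highest sums of collagen and myofibroblast genes. Collagens of all kinds summed to 72491 CPM, against 59535 CPM and 54189 CPM in groups 2 and 3. The lead of group 1 lies largely in Col1a1 (20444 CPM, 12588 CPM and 12082 CPM) and Col1a2 (15721 CPM, 12270.1 CPM and 11515 CPM), on which the members were selected. Col3a1 was closer between groups, at 25588 CPM, 24579 CPM and 23184 CPM. The list of other collagens was highest in group 2, at 5963 CPM, 6728 CPM and 4971 CPM. Myofibroblast genes summed to 6611 CPM, 4289.9 CPM and 1788 CPM. Tnc stood at 1117 CPM, 14.6 CPM and 109.8 CPM, and Col12a1, a collagen of tissue under tension, at 1331 CPM, 35.3 CPM and 190.1 CPM. Bgn had medians of 38.1, 4.17 and 15.7 UMIs per 10000. The genes that led the group by ratio were sparser. Crabp1 was seen in 32.7% of its cells, the BMP antagonist Grem1 in 26.5%, Tagln in 28.6% and Ltbp2, which binds microfibrils, in 42.9%. Ncam1, an adhesion molecule, was in 65.3% and the osteoclast cytokine Tnfsf11 (RANKL) in 40.8%. Mmp9 and Nos2, the inducible nitric oxide synthase, are better known from white cells, and were in 38.8% and 28.6%. Mmp9 stood at 96.9 CPM in this group and at 731 CPM in neutrophils. Divided into 4 groups, these 49 cells fell into 32 and 17. The 32 cells had the highest collagen sum of the 4 groups, at 82020 CPM. The 17 cells had the highest Saa3, at 30296 CPM.

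Group 2 had the highest sums of adventitial and dermal genes. Adventitial genes summed to 9286 CPM, 23702 CPM and 13344 CPM, and dermal genes to 5011 CPM, 12845 CPM and 7132 CPM. Clec3b stood at 729 CPM, 2304 CPM and 819.5 CPM, and its cells in group 2 held 0, 24.9 and 51.5 UMIs per 10000. Gsn had medians of 9.34, 99.9 and 37.4. Fn1 stood at 2488 CPM, 5553 CPM and 1512 CPM, and Igfbp5 at 96.9 CPM, 855 CPM and 9.23 CPM. Saa3 and Hp were low: Saa3 stood at 694 CPM here against 25074 CPM in group 1, and Hp at 143 CPM against 3000.3 CPM. C3 was not, at 6632 CPM against 4051 CPM. Mrgprg, a receptor of the Mas-related family, was seen in 47.4% of its cells, at 350.2 CPM, and not in a cell of groups 1 and 3. Smpd3, a sphingomyelinase, was in 68.4%, Daglb, a lipase of endocannabinoid synthesis, in 84.2%, and Gdf10 in 47.4%. Efhd1 was in 63.2% and Akr1c18, which inactivates progesterone, in 39.5%. In groups 1 and 3 the shares were 12.2% and 33.3% for Smpd3, 36.7% and 46.7% for Daglb, and 8.16% and 6.67% for Gdf10. They were 8.16% and 3.33% for Efhd1 and 6.12% and 13.3% for Akr1c18. Hbb-bs also led this group, through the member with 2670.0 hemoglobin UMIs. Saa3 was seen in 44.7% of the cells of group 2.

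Group 3 had the highest sum of chemokines. Chemokines summed to 6582 CPM, 9602 CPM and 22859.7 CPM. Cytokines and acute mediators, Saa3 among them, summed to 31686 CPM, 9549 CPM and 33618 CPM, so groups 1 and 3 were close. Cxcl5 was highest in group 1, at 1055 CPM, 24.3 CPM and 524 CPM. Cxcl13 stood at 116 CPM, 225 CPM and 1964 CPM, and Cxcl1 cells of group 3 held 6.69, 48.1 and 104 UMIs per 10000. Il6 had medians of 0, 2.65 and 10.3, and Ptx3 of 5.98, 9.30 and 40.2. Il6 and Ptx3 thus had their highest medians in group 3. Lcn2 was seen in 100.0% of its cells, Csf3 in 43.3% and Lif in 26.7%. Tifa, an adaptor of NF-kappaB signaling, was in 43.3%, Depdc5, a restraint on mTORC1, in 60% and Cxcl9 in 66.7%. In groups 1 and 2 the shares were 57.1% and 13.2% for Lcn2, 20.4% and 2.63% for Csf3, and 8.16% and 5.26% for Lif. They were 20.4% and 7.89% for Tifa and 38.8% and 10.5% for Depdc5. For Cxcl9 they were 24.5% and 63.2%, so group 2 was close to group 3. Prg4 stood at 426 CPM, 174 CPM and 1231 CPM, and Mt1 at 5971 CPM, 4401 CPM and 11872 CPM. Interferon-stimulated genes summed to 4384 CPM, 5778 CPM and 7889 CPM, and complement genes to 9545 CPM, 12657 CPM and 16265 CPM. Postn was lower here, with medians of 14.8, 22.2 and 2.79. Immediate early and stress genes summed to 8779.9 CPM, 22857 CPM and 27479.8 CPM. With these genes left out of the clustering, the 30 cells of group 3 stayed together in a group of 40 cells, and chemokines reached 20511 CPM there.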

How the data were processed

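The authors' deposited count matrices (10x Single Cell 3' v3; Cell Ranger 3.1.0 by the file headers, Cell Ranger and Seurat 3.1.1 by the submitters' notes) were read as raw UMIs. The sources differ on the genome (mm9 in the notes, a human build in the methods). The gene identifiers are mouse, and 30934 of 31053 matched GENCODE vM21 (GRCm38), used for coordinates. Barcodes with at least 300 genes, under 100000 gene UMIs and under 10% mitochondrial UMIs were kept, without doublet removal. Members and gene lists were chosen with earlier results of these data known. Named genes are the markers, the leading genes by level, ratio and dispersion, and the leading genes of each list and group. Levels are summed UMIs per 1000000 with exact Poisson intervals, and ratios have conditional binomial intervals. Log2 ratios have 1 CPM added. Thinning drew UMIs without replacement with a fixed seed. Analyses used Python 3.11.15, numpy 2.4.6, scipy 1.17.1 and pandas 2.3.3, and the scripts were tested on simulated data.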

Additional observations from a re-analysis of the deposited data

Results flagged for a closer look

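The graft library also holds counts of hashtag antibodies, which the comparisons above do not use. Antibodies that the file names for human cells gave 33543 UMIs in the fibroblasts, and those named for mouse cells gave 5, a signal in data outside the main measurement and above what a count of 0 allows. Per fibroblast the human-named antibodies gave 16, 133 and 6256 UMIs (lowest, median, highest), and medians were 402.5 in macrophages, 153 in neutrophils, 140 in T cells and 160.5 in endothelial cells. Of the 20 antibodies, 4 gave 99.9% of the UMIs in fibroblasts. More than 50% of a cell's UMIs of these human-named antibodies came from its top antibody in 32 of 125 fibroblasts, 542 of 580 macrophages, 81 of 458 neutrophils, 22 of 257 T cells and 8 of 22 endothelial cells. No source maps these antibodies to animals or says whether the human-named ones were meant for mouse cells, so they are given as counts.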

How the results depend on the processing

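The share of kept cells that met the rule stayed between 5.41% and 6.48% under the alternatives tried, near the 5.83% reported. The count of higher genes was 1114 at 4-fold, 734 with a minimum of 50 CPM and 4881 with no minimum. The count of lower genes was 1144, 1161 and 6840.0 under the same settings. The settings define which genes can be counted, and under the other alternatives the counts stayed within 1.5-fold (1729 to 2109 higher and 2114 to 2358 lower). Collagen made up 6.48% of UMIs as a mean over cells, 3.42% without Col1a1 and Col1a2, 6.45% with stricter members, 6.32% without members that had a Ptprc UMI and 6.54% without the 10% of members with the most UMIs. These lie outside the counting interval of the reported 6.38%. Apart from the leaving out of the genes named, the cause was not tested.

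Of 30 lists, 25 had a median log2 ratio above 0, and 24 to 27 did under the alternatives. The median changed sign for preadipocyte and adipocyte genes against macrophages (0.000609). It did so for nuclear receptors as a mean over cells (0.45), against macrophages (0.0819) and with collagen UMIs left out of the totals (0.27). It also did so for cell cycle genes with stricter members (-0.0364) and for immediate early and stress genes as a mean over cells (-0.0907), and the cause was not tested. Of 183 alternative list medians, 115 stayed within their limits, 62 moved and 6 changed sign. For some lists the limits do not hold the main median. For collagen processing genes, with a main median of 4.78, 4.77 counted as moved and 5.29 as within. The numbers within and moved therefore do not measure stability. Of 200 alternative ratios of the 25 leading genes, 83 stayed within the counting interval and 117 moved. The ratios have 1 CPM added and the intervals do not, so a main value can lie outside its interval, as for Adamts5. This tally therefore does not measure stability. Among the 25 genes, Malat1, which was neither higher nor lower, changed sign under 4 of 8 alternatives, and the other genes under 0. Of these 25 genes, 19 were seen in at least 50% of thinned fibroblasts, and 24 without thinning.

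The largest group held 49 cells with 3 groups, 68 with 2 groups and 38 with 4 groups, as the number of groups sets its size. With 2 groups, the same tree joins groups 2 and 3. In the 7 other alternatives run, the 30 cells of group 3 stayed together. At best 32 to 49 of the 49 cells of group 1, and 29 to 38 of the 38 of group 2, stayed together. Alternatives that left out the member with a shared barcode, immediate early and stress genes, hemoglobin genes with Gm42418 and Gm26870, or genes of the rule were chosen after seeing the data.

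No paired analysis was possible because the 5 mice were pooled and each condition has 1 library. Spread between mice is therefore unknown. A count of 0 in fibroblasts allows up to 0.872 CPM at this depth. The endothelial set has the fewest cells, 22. Empty droplets were not analysed, and free RNA was read from T cells and neutrophils. Depth differed between the sets and between the groups of fibroblasts. The counts hold no position and no human genes.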
